A study of Mus musculus with 10 samples.

Results

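Glutathione transferases of the mu class (Gstm1, Gstm2, Gstm3, Gstm4 and Gstm6) and of the theta class (Gstt1, Gstt2 and Gstt3) were followed in 10 mouse livers, with Gsta3 of the alpha class and Gstp1 of the pi class as members from outside these classes. These 10 genes were chosen by name, with earlier results of the same arrays known, from 22180 genes that had a value under a single symbol. Each had 1 such transcript cluster, the array's group of probes for a transcript, and all 10 passed the filter on low values that left 13308 genes for testing. Their differences between groups are therefore a description, and the share of all tested genes that met the same mark stands beside the counts of members.

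The livers came from 4-week-old male mice, and every animal carried Rosa26-rtTA, the doxycycline-dependent transactivator placed in a locus that is active in most tissues. In 3 livers the genotype was Rosa26-rtTA + SOD2 shRNA 1 and in 3 it was Rosa26-rtTA + SOD2 shRNA 2, with hairpins against Sod2, which encodes superoxide dismutase of the mitochondrion. The other 4 livers were rtTA-only littermates. Of these, 3 came from the cohort of shRNA 2 and 1 in that of shRNA 1, without a statement of which was which. The dams ate doxycycline chow at 625 mg/kg, which gave knockdown over embryonic days 0 to 12.5. The 6 shRNA livers, called adapted in the labels, were taken weeks after that window. Hairpin and cohort could not be told apart for either line. Whether each numbered sample was an animal of its own is not stated, so part of the spread behind the p-values may be technical. Samples of 1 group did differ, for example in a score from clock genes (0.87, -0.72 and 1.31 in shRNA 2). The 3 comparisons with control use the same 4 control livers.

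Glutathione transferases join the tripeptide glutathione to reactive compounds such as epoxides, quinones, lipid aldehydes and halogenated chemicals, which can then be exported and excreted. Liver is rich in these enzymes, and mu, theta, alpha and pi are separate classes of the soluble family with partly different substrates. Their genes lie in runs of close copies and are known targets of NRF2, the regulator of the antioxidant response, and of the xenobiotic receptors CAR and PXR. Several differ between male and female mouse liver. Because the copies share sequence, probes for one gene can read RNA of another, and how far the clusters were specific was not tested.

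The start regions of 4 members are shown because the results turn on Gstt1, Gstt3 and Gstm3, and because Gsta3 alone among the matched members held the antioxidant response element. Of the 10 members, 9 had such a region in RefSeq for build GRCm38.p6, and each covers 250 bases before and 50 after a transcript start. Capitals mark matches, on either strand, to any of 4 motifs. They are the antioxidant response element, searched as TGACNNNGC. The dioxin response core was searched as GCGTG. The TATA box was searched as TATAAA. The CCAAT box was searched by its name, and reads ATTGG on the opposite strand; no match in a member overlapped another motif. The regions are Gstt1 at chr10:75797682-75797981, Gstt3 at chr10:75781373-75781672 and Gstm3 at chr3:107969125-107969424, all on the minus strand, and Gsta3 at chr1:21240335-21240634 on the plus strand.
Gstt1: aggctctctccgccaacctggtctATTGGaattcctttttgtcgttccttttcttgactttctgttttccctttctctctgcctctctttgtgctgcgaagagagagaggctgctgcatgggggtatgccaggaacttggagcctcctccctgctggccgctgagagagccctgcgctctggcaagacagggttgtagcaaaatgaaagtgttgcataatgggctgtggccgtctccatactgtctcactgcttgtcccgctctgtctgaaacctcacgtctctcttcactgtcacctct
Gstt3: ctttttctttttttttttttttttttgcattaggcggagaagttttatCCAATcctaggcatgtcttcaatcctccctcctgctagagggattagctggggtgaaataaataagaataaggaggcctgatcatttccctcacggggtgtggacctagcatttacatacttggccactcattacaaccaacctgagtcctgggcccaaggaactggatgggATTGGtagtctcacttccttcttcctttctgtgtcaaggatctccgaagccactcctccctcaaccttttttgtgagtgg
Gstm3: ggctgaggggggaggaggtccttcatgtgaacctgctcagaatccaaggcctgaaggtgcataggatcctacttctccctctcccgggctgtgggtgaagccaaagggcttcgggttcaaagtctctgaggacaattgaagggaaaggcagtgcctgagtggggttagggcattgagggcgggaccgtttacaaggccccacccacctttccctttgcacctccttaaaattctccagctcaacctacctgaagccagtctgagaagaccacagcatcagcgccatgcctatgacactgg
Gsta3: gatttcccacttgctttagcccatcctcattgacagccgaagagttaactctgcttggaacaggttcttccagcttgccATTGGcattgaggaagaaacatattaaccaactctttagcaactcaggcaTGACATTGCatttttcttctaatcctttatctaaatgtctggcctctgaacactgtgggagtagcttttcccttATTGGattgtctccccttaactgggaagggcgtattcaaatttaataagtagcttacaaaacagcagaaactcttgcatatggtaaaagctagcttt
Gsta3 had 1 match to the antioxidant response element, TGACATTGC, whose first base lay at -121 from the start. It also held CCAAT boxes on the opposite strand at -171 and -47. Gstt3 had a CCAAT box at -202 and another on the opposite strand at -30, Gstt1 had 1 on the opposite strand at -226, and Gstm3 matched none of the 4 motifs in this window. Among 32851 promoter windows of all genes, 12.4% held the antioxidant response element, 32.4% the dioxin response core, 13.6% the TATA box and 37.4% the CCAAT box. A match describes letters only, and a window without one says nothing about the factor.

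The arrays were similar in scale, with medians from log2 4.06 to 4.17 and pairwise correlations across genes of 0.989 to 0.994, and the number of arrays limits the precision. All 10 hepatocyte markers were above the low-value filter, and their mean lay at log2 12.77 to 12.80 in shRNA 1 livers, 12.73 to 12.75 in shRNA 2 livers and 12.72 to 12.78 in controls. Sod2 was at 10.39 ± 0.06 in shRNA 1 livers and 10.35 ± 0.12 in shRNA 2 livers (SD, n = 3 each), against 10.38 ± 0.08 in controls (SD, n = 4). The third shRNA 2 liver stood apart from the other adapted livers. Relative to the control mean, its mean over 18 genes known to be higher in male liver was at -1.35 on the log2 scale, against -0.10 and -0.19 in the other shRNA 2 livers. For the members, lists and genes whose values it moved most, the value without it is given too.

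The theta class stood higher in adapted livers, by up to 1.89-fold, for Gstt3. Gstt1 and Gstt3 lay above every control in all 6 adapted livers, and Gstt2 did so in 4 of 6. None of the 3 passed the adjusted threshold of 0.05. In a bulk liver sample, more cells of a type and more RNA per cell cannot be told apart.

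Gstt1 encodes a transferase that acts on small halogenated compounds. Its log2 values were 10.05, 10.04 and 10.38 in shRNA 1 livers and 9.93, 9.68 and 9.81 in shRNA 2 livers, against 9.21, 9.54, 9.49 and 9.39 in controls. The 3 groups were in order without overlap, with shRNA 1 above shRNA 2 and shRNA 2 above control. The adapted livers were higher than controls by 0.57 log2 units (SE 0.10, 1.49-fold, limma adjusted p = 0.17). The difference was 0.75 (SE 0.12, adjusted p = 0.059) for shRNA 1 and 0.40 (SE 0.12, adjusted p = 0.604) for shRNA 2, each against control. Between the hairpins it was 0.35 (SE 0.13, adjusted p = 0.723).

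Gstt3, a less studied theta gene of the same run, gave 5.81, 6.44 and 6.56 in shRNA 1 livers and 5.59, 5.33 and 6.09 in shRNA 2 livers, against 4.82, 5.31, 4.92 and 5.17 in controls. The lowest adapted value, 5.33 in an shRNA 2 liver, lay just above the highest control at 5.31, and the 2 hairpin groups overlapped. The adapted livers were higher by 0.92 log2 units (SE 0.18, 1.89-fold, limma adjusted p = 0.19). For shRNA 1 the difference from control was 1.22 (SE 0.21, 2.32-fold, adjusted p = 0.0821), and for shRNA 2 it was 0.62 (SE 0.21, adjusted p = 0.62). Without the third shRNA 2 liver the shRNA 2 value became 0.41 (adjusted p = 0.664).

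Gstt2, whose rat and human counterparts also split aryl sulfates, behaved less evenly. It was at 6.68, 6.38 and 6.59 in shRNA 1 livers and 6.67, 6.03 and 7.71 in shRNA 2 livers, against 5.96, 5.93, 5.68 and 6.40 in controls. The third shRNA 2 liver was more than 1 log2 unit above every other liver, and 1 control exceeded an adapted liver in each hairpin group. The difference was 0.68 (SE 0.26, limma adjusted p = 0.513) for adapted livers and 0.81 (SE 0.31, adjusted p = 0.621) for shRNA 2 against control. Without the third shRNA 2 liver these were 0.46 (adjusted p = 0.47) and 0.36 (adjusted p = 0.689).

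**Figure D1:**
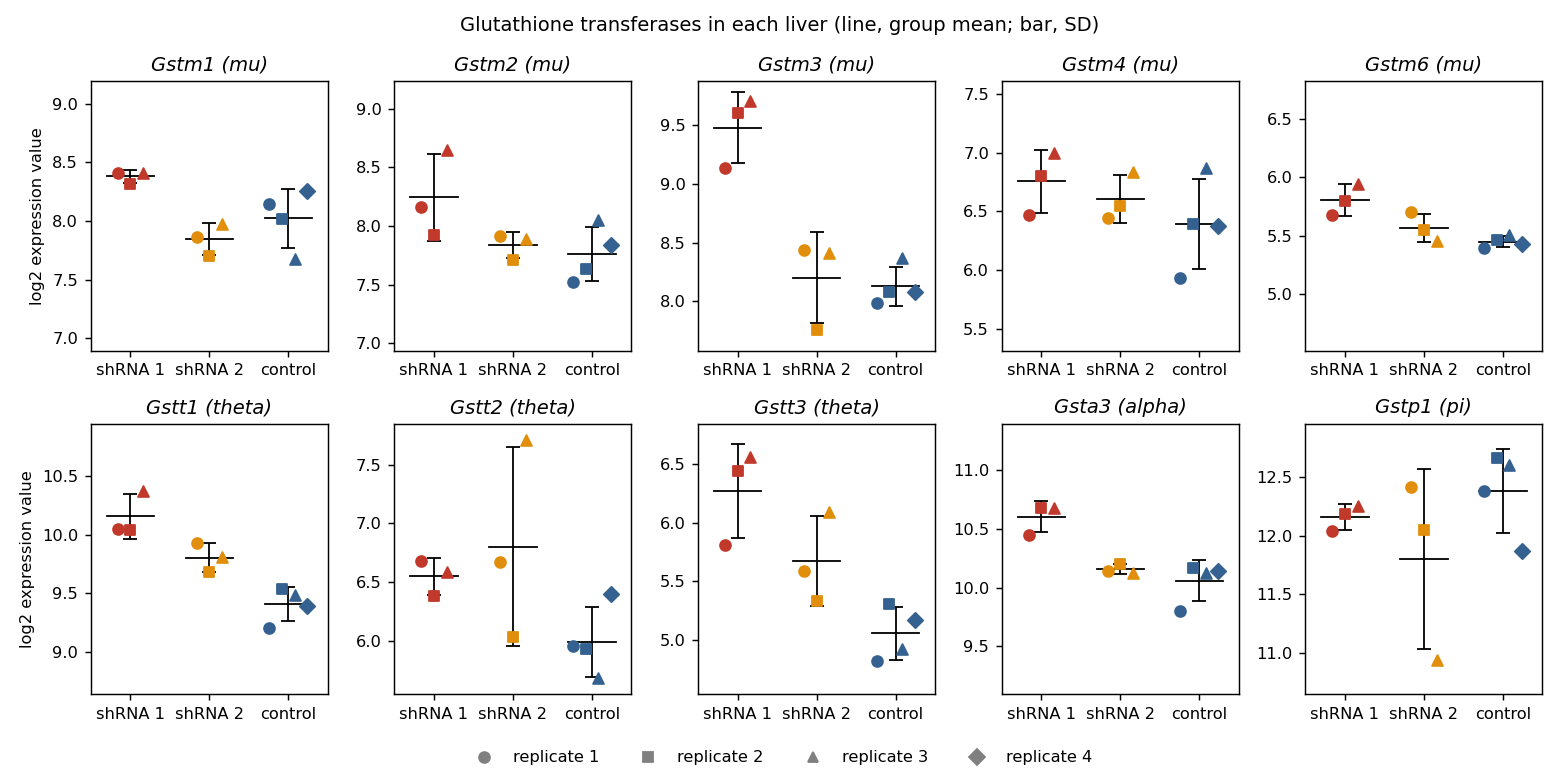
Log2 expression value (vertical axis, each panel spanning the same range of log2 units) of each of the 10 transferases in every liver, by group; points are livers, lines the group means and bars 1 SD (n = 3, 3 and 4). Gstt1 separates all 3 groups, Gstm3 is high only among the shRNA 1 livers, at 9.14 to 9.70, and 1 shRNA 2 liver carries both the highest Gstt2 (7.71) and the lowest Gstp1 (10.94).

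In the mu class Gstm3 showed the largest difference from control, in shRNA 1 livers. Gstm3, a mu gene known in mouse liver to be induced through NRF2, was high in all 3 shRNA 1 livers and near control in shRNA 2 livers. Gstm1, Gstm2, Gstm4 and Gstm6 also had their highest group mean in shRNA 1 livers, with smaller differences, and for Gstm4 the hairpins differed by 0.15 (limma adjusted p = 0.975). No mu gene passed the adjusted threshold in any of the 4 comparisons.

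Gstm3 was at 9.14, 9.60 and 9.70 in shRNA 1 livers and 8.44, 7.75 and 8.41 in shRNA 2 livers, against 7.98, 8.08, 8.37 and 8.08 in controls. Every shRNA 1 liver exceeded every other liver, while the shRNA 2 livers lay on both sides of the controls. The difference from control was 1.35 log2 units for shRNA 1 (SE 0.18, 2.56-fold, 95% interval 0.95 to 1.76, limma adjusted p = 0.0525). For shRNA 2 it was 0.07 (SE 0.18, 95% interval -0.33 to 0.48, adjusted p = 0.959). The difference between the hairpins, which tests whether the 2 lines differed, was 1.28 (SE 0.20, 95% interval 0.85 to 1.71, adjusted p = 0.0821). The shRNA 1 value came close to the threshold, and it passed under several other settings, with adjusted p from 0.015 to 0.243 over all those run.

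Gstm1, a main constitutive mu transferase of mouse liver, was at 8.41, 8.32 and 8.41 in shRNA 1 livers and 7.87, 7.71 and 7.97 in shRNA 2 livers, against 8.15, 8.02, 7.68 and 8.26 in controls. The shRNA 1 livers lay above all controls and the shRNA 2 livers lay below the control mean. The differences from control were 0.36 (SE 0.13, limma adjusted p = 0.52) for shRNA 1 and -0.18 (SE 0.13, adjusted p = 0.808) for shRNA 2. The hairpins differed by 0.53 (SE 0.14, adjusted p = 0.532), without overlap.

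Gstm2 was at 8.16, 7.93 and 8.65 in shRNA 1 livers and 7.92, 7.71 and 7.89 in shRNA 2 livers, against 7.52, 7.63, 8.05 and 7.84 in controls. Its shRNA 1 livers overlapped the controls and stood just above the shRNA 2 livers. The difference of shRNA 1 from control was 0.49 (SE 0.17, limma adjusted p = 0.489).

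Gstm6 was at 5.68, 5.79 and 5.94 in shRNA 1 livers and 5.70, 5.55 and 5.46 in shRNA 2 livers, against 5.40, 5.46, 5.51 and 5.43 in controls. All shRNA 1 livers were above the controls, by 0.36 on average (SE 0.10, limma adjusted p = 0.336), while an shRNA 2 liver fell within the control range. Gstm4 averaged 6.76 ± 0.27 in shRNA 1 livers and 6.61 ± 0.20 in shRNA 2 livers (SD, n = 3 each), against 6.39 ± 0.39 in controls (SD, n = 4). Its groups overlapped in every comparison, and the controls alone ranged from 5.93 to 6.87.

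The alpha and pi members differed from control in opposite directions. Gsta3, the alpha transferase that protects mice from aflatoxin, was at 10.45, 10.68 and 10.67 in shRNA 1 livers and 10.14, 10.20 and 10.12 in shRNA 2 livers, against 9.80, 10.17, 10.13 and 10.14 in controls. Like Gstm3 it was high in every shRNA 1 liver, by 0.54 over control (SE 0.11, limma adjusted p = 0.147) and 0.45 over shRNA 2 (SE 0.12, adjusted p = 0.532). The shRNA 2 livers overlapped the controls, with a difference of 0.10 (SE 0.11, adjusted p = 0.873). Without the first control, which was low for Gsta3, that difference was 0.0099 (adjusted p = 0.989).

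Gstp1, the pi transferase that is more abundant in male than in female mouse liver, was at 12.04, 12.19 and 12.25 in shRNA 1 livers and 12.42, 12.05 and 10.94 in shRNA 2 livers, against 12.38, 12.66, 12.60 and 11.87 in controls. Alone among the 10 members it had a negative difference in both hairpin groups, and both overlapped the controls. The adapted livers were at -0.40 relative to control (SE 0.25, limma adjusted p = 0.708), and at -0.18 without the third shRNA 2 liver (adjusted p = 0.765).

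Counted over the whole list, no member passed an adjusted p of 0.05 by limma in any comparison, and 6, 7, 3 and 7 of 10 had an unadjusted p under 0.05. For adapted against control, 0 of 10 passed, beside 0.00751% of all genes tested, and the 6 at the unadjusted mark were all higher, beside 4.86% of genes higher and 3.51% lower at that mark. In that comparison 9 of 10 differences were positive, beside 52% of genes, and the 2 members above all controls, Gstt1 and Gstt3, stand beside 1.04%. For shRNA 1 against control, 0 of 10 passed, beside 0% of genes, 7 were higher at the unadjusted mark, beside 4.57%, and 6 lay above all controls, beside 5.07%. For shRNA 2 against control, 0 of 10 passed, beside 0.00751%, 3 were higher at the unadjusted mark, beside 4.14%, and 2 lay above all controls, beside 3.88%. Those 3 were the theta genes, and without the third shRNA 2 liver 1 of 10 was higher at that mark, beside 4.23% of genes in the same fit. For shRNA 1 against shRNA 2, 0 of 10 passed, beside 0.015%, 7 were higher in shRNA 1 at the unadjusted mark, beside 3.32%, and 5 lay above all shRNA 2 livers, beside 5.94%. The median difference of the members was 0.30, 0.51, 0.11 and 0.38 in the same order of comparisons, and that of all genes tested was between 0.00 and 0.01. Since the members were picked with these differences known, nothing is read from the counts.

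**Figure D2:**
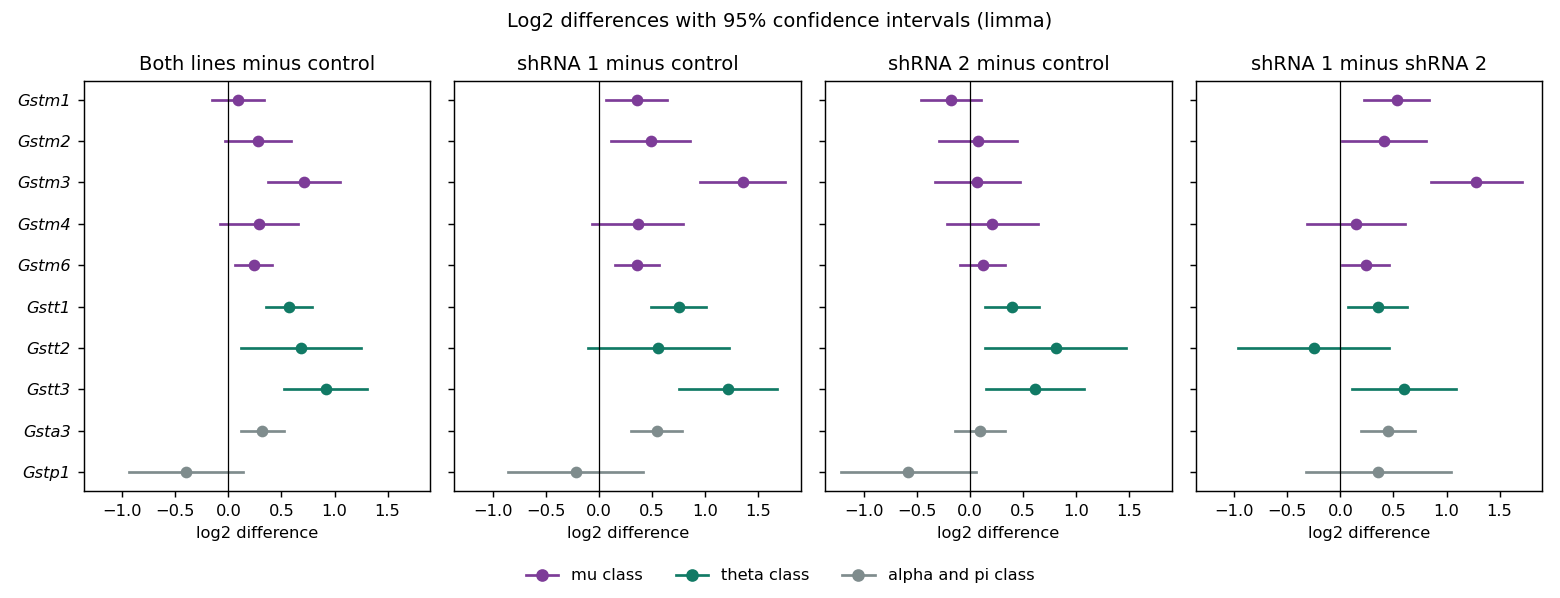
Log2 difference (horizontal axis) of each transferase in the 4 comparisons, with the 95% interval of the limma fit. Gstm3 spans 0.95 to 1.76 for shRNA 1 against control and -0.33 to 0.48 for shRNA 2 against control, and the estimates of the 3 theta genes are above 0 in both, with an interval for Gstt2 in shRNA 1 that includes 0.

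The runs of gene copies were then read against their neighbours on the chromosome, using gene order from the GRCm38.p6 gene table. On chromosome 3 the order was Ahcyl1, Csf1, Gstm7, Gstm6, Gstm3, Gstm2, Gstm1, Gstm4, Ampd2 and Gnat2 among genes with a value. The flanking genes differed between shRNA 1 and control by 0.13 (Ahcyl1), -0.13 (Csf1), 0.14 (Ampd2) and -0.03 (Gnat2), while the mu members between them ran from 0.36 to 1.35 and Gstm7 was at 0.22. For shRNA 2 against control the same mu members ran from -0.18 to 0.21 and Gstm7 was at 0.19. Within the run Gstm3 lay beside Gstm6 and Gstm2, whose differences were 0.36 and 0.49.

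On chromosome 10 the order was Susd2, Cabin1, Ddt, Gstt3, Gstt1, Gstt4, Gstt2, Mif, Derl3 and Smarcb1. Gstt4 was under the low-value filter, with a difference of 0.00 between shRNA 1 and control, though it sits between Gstt1 and Gstt2. Mif and Ddt, which encode related tautomerases, were at 0.43 and 0.22 in shRNA 1 relative to control. Susd2 and Smarcb1, the outermost neighbours, were at -0.08 and -0.09.

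**Figure D3:**
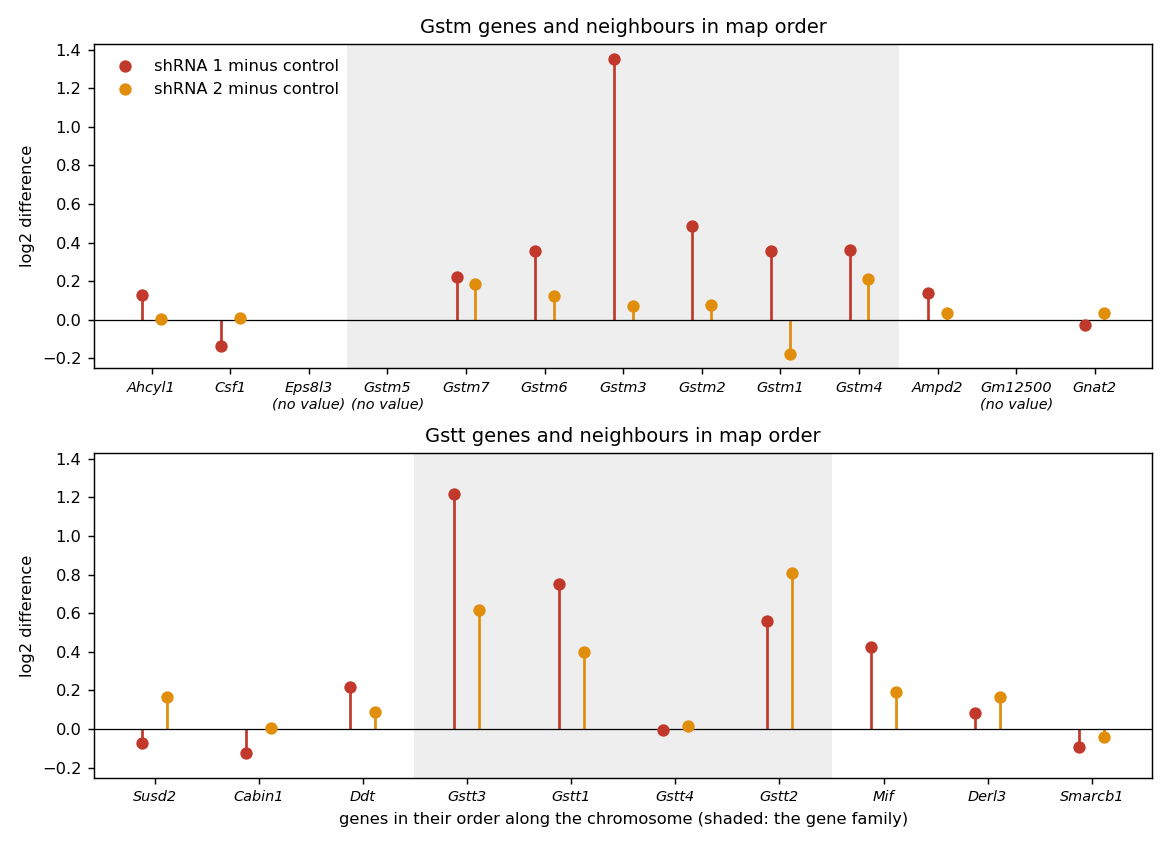
Log2 difference from control (vertical axis) of the genes of the mu run and of the theta run with their neighbours, in chromosome order (horizontal axis, order only), for shRNA 1 and shRNA 2. Gstm3 stands at 1.35 for shRNA 1 and 0.07 for shRNA 2, between neighbours of the run at 0.36 and 0.49 for shRNA 1.

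Across the 10 livers some members varied together. The permutations shuffled all livers across the 3 groups, and the members were picked with their group differences known. Shared group differences therefore enter every r and p over the 10 livers, and these p-values are a description. For deviations from the group means no p was computed. Over 45 pairs of members, Gstt1 and Gstt3 had a Pearson r of 0.91 (permutation p = 0.00027, adjusted p = 0.00607) and a Spearman rho of 0.93 (permutation p = 0.00026, adjusted p = 0.0117). Without the 2 livers farthest from the median of Gstt1 the r was 0.83, and over deviations from the group means it was 0.54. Gstm6 and Gstt1, on different chromosomes, had an r of 0.92 (permutation p = 0.00017, adjusted p = 0.00607) and a rho of 0.88 (permutation p = 0.00168, adjusted p = 0.0355). That r was 0.85 without the 2 farthest livers and 0.73 over deviations from the group means. Gstt2 and Gstp1 ran opposite, with an r of -0.85 (permutation p = 0.00687, adjusted p = 0.0221) and a rho of -0.68 (permutation p = 0.0341, adjusted p = 0.118). Their r was -0.37 without the 2 livers farthest in Gstt2 and -0.53 without the third shRNA 2 liver, so that relation rests on few samples. Between Gstm1 and Gstm4, neighbours in the run, the r was -0.02.

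The genes most like Gstm3 by Pearson r over the 10 livers were Serp2 (0.94), Ephx1 (0.94), Cbr1 (0.93), Fbp1 (0.92) and Ces1b (0.91). Ephx1 encodes the microsomal epoxide hydrolase and Cbr1 a carbonyl reductase. The genes most like Gstt1 were Aqp8 (0.96), Bin1 (0.95), Tmem86b (0.94), Fbxl4 (0.93) and Gstm6 (0.92). Those most like Gstt3 were Cdcp1 (0.95), Papss2 (0.95), Sash1 (0.93), Aqp8 (0.92) and Prex2 (0.92). Aqp8, a water and hydrogen peroxide channel, was on both lists, which are not separate because Gstt1 and Gstt3 had an r of 0.91. The Aqp8 difference from control was 1.01 for shRNA 1 and 0.43 for shRNA 2. Over deviations from the group means the genes most like were others, Myrf (0.95) for Gstm3, Pomt1 (0.97) for Gstt1 and Abcb11 (0.97) for Gstt3. The lists therefore depend on whether the differences between groups are kept. Each list holds the highest r among all genes ranked over only 10 livers. How high such an r would be by chance was not tested, so no relation is read from the lists.

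Other transferases outside the 10 gave a mixed picture. Of 17 listed, 13 had a single-symbol cluster and 9 were tested. For adapted against control 7 were positive, beside 52% of all genes tested. At the unadjusted mark 4 were higher, beside 4.86% of genes, and 0 lower, beside 3.51%, and 0 passed the adjusted threshold, beside 0.00751%. Their median difference was 0.18. Gstm7, next to Gstm6, was at 9.12, 9.11 and 9.35 in shRNA 1 livers and 9.12, 9.30 and 9.05 in shRNA 2 livers, against 8.83 to 9.04 in the 4 controls. All 6 adapted livers lay above all controls for Gstm7, as for 1.04% of all genes tested, with a difference of 0.21 (limma adjusted p = 0.568). Mgst3, a membrane-bound transferase, differed by 0.50 (adjusted p = 0.297), Gsta4, which conjugates the lipid aldehyde 4-hydroxynonenal, by 0.42 (adjusted p = 0.59), and Gstcd by 0.28 (adjusted p = 0.504). Gsta4 was at 0.78 for shRNA 1 and 0.06 for shRNA 2 relative to control. Gstp2, the second pi gene, was at -0.35 for adapted livers (adjusted p = 0.618), with its lowest value, 9.79, in the third shRNA 2 liver, and at -0.23 without that liver (adjusted p = 0.663). Without it Gsta4 was at -0.17 for shRNA 2 relative to control.

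**Figure D4:**
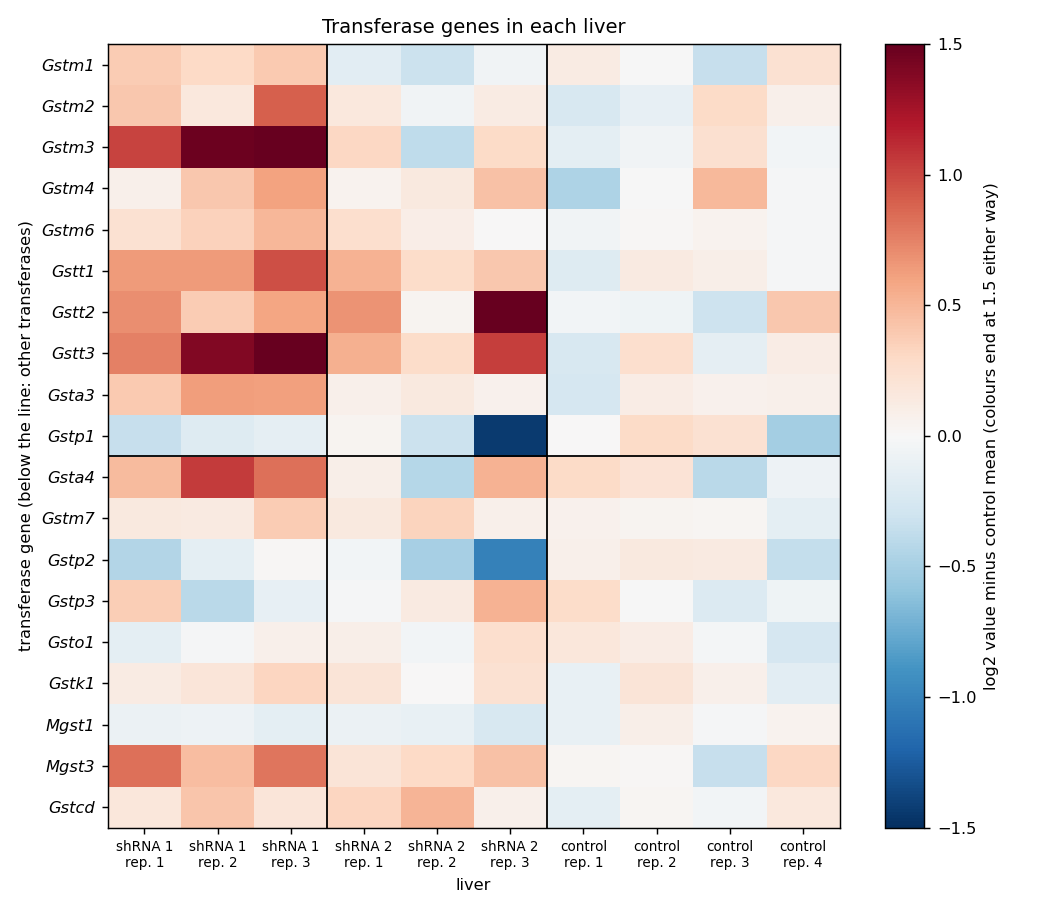
Log2 value minus the control mean (colour, clipped at 1.5) of the 10 transferases and of 9 other tested transferases in each liver. The shRNA 1 columns are above the control mean for Gstm3, Gstt3, Gstt1 and Gsta3, and the third shRNA 2 column is low for Gstp1 and Gstp2.

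Genes that make, reduce and spend glutathione were compared through lists chosen with earlier results known. None of their genes passed the adjusted threshold in any comparison by limma, and the unadjusted counts of these and the following lists stand beside 4.86% of all genes higher and 3.51% lower for adapted against control. Of 8 tested genes of glutathione synthesis, 0 had an unadjusted p under 0.05 for adapted against control, and the median difference was 0.06. Gclc, of the rate-limiting ligase, was at 0.06 and Gss, the synthase, at -0.02. Of 7 genes of glutathione reduction and NADPH supply, 3 were higher and 0 lower at that mark, with a median of 0.11. Pgd, of the pentose phosphate pathway, differed by 0.49 (adjusted p = 0.318), and Me1, the cytosolic malic enzyme, by 0.44 (adjusted p = 0.513). Gsr, which reduces oxidised glutathione, was at 0.02. Me1 shared the pattern of Gstm3 in value, at 0.91 for shRNA 1 and -0.03 for shRNA 2 relative to control, with 0.94 between the hairpins (adjusted p = 0.33). Of 9 peroxidases and glutaredoxins 1 was higher and 0 lower, with Gpx1 at 0.00 and Glrx at 0.39. Of 16 genes of breakdown and export 3 were higher and 0 lower, with the basolateral exporter Abcc3 at 0.37. Of those 16, 1 was higher without the third shRNA 2 liver.

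Known targets of NRF2 other than transferases had 22 tested genes, of which 8 were higher and 1 lower at the unadjusted mark for adapted against control. Their median difference was 0.12 for adapted livers, 0.19 for shRNA 1 and 0.01 for shRNA 2. The list repeats genes of the glutathione lists above, with Pgd, Me1 and Abcc3 among those higher. It shares Ephx1 and Abcc3 with the CAR and PXR targets below, so the counts of these lists are not separate. Nqo1, a quinone reductase, differed by 0.61 (limma adjusted p = 0.427), Ces1g, a carboxylesterase, by 0.46 (adjusted p = 0.312) and Blvrb, a biliverdin reductase, by 0.34 (adjusted p = 0.432). The classic targets Hmox1 and Txnrd1 were at -0.06 and -0.11. The mean of the list, relative to control, was 0.16, 0.23 and 0.27 in shRNA 1 livers and 0.07, 0.04 and -0.02 in shRNA 2 livers, against -0.05, 0.05, 0.06 and -0.07 in controls. The shRNA 1 livers form a cluster of their own on this mean, so values within groups are given too. The permutations for list means also shuffled livers across groups, so their p-values are a description too. Over 40 relations of members with list means, the r with Gstm6 was 0.94 (permutation p = 5e-05, adjusted p = 0.002). It was 0.91 for Gsta3, 0.90 for Gstm3 and 0.87 for Gstt1 (permutation adjusted p = 0.0046 each). The rho was 0.94, 0.71, 0.81 and 0.85 in that order (adjusted p = 0.0092, 0.0774, 0.0394 and 0.0187). Without shRNA 1 replicates 2 and 3 these r were 0.82, 0.75, 0.67 and 0.74. Over deviations from the group means they were 0.80, 0.57, 0.44 and 0.68. Gstt3 and Gstm2 had an r of 0.76 and 0.75 (permutation adjusted p = 0.0349 each), and of 0.20 and 0.39 over deviations from the group means. For Gstt2 the r was 0.04.

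Targets of CAR and PXR other than transferases had 24 tested genes, of which 9 were higher and 0 lower at the unadjusted mark. The median difference was 0.24 for adapted livers, 0.41 for shRNA 1 and 0.12 for shRNA 2, the last at 0.07 without the third shRNA 2 liver. In the fit without that liver Papss2 passed the adjusted threshold for shRNA 1 against control. Papss2, which makes the sulfate donor, differed by 0.59 (limma adjusted p = 0.17), Sult1d1, a sulfotransferase, by 0.54 (adjusted p = 0.293) and Cyp2c54 by 0.37 (adjusted p = 0.433). Cyp2b9, a cytochrome P450 that is also higher in female liver, differed by 3.70 (adjusted p = 0.345), with an SD of 2.61 among controls, and by 3.31 without that liver (adjusted p = 0.39). Over the same 40 relations, Gstt3 and the mean of the CAR and PXR targets had an r of 0.90 (permutation p = 0.00089, adjusted p = 0.0046) and a rho of 0.90 (permutation p = 0.00092, adjusted p = 0.0183). Without the 2 livers farthest on the list mean the r was 0.82, and over deviations from the group means it was 0.69. Gstt1, Gstt2 and Gsta3 had an r of 0.78, 0.74 and 0.75 with this mean (permutation adjusted p = 0.0319, 0.0319 and 0.0349). Over deviations these were 0.21, 0.77 and 0.36, and the rho had adjusted p of 0.0574, 0.0767 and 0.148. By r, Gstt1, Gstt3 and Gsta3 had an adjusted p under 0.05 with both this mean and that of the NRF2 targets. This list shares Cyp2b9, Cyp2b13, Cyp3a41a and Cyp3a44 with the female-biased list below, so the relations of Gstt3 with the means of both are not separate. Of 26 other conjugating enzymes, 6 were higher and 2 lower, with a median of 0.10. Papss2 and Sult1d1 are counted there as well as among the CAR and PXR targets.

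Of 24 tested genes of the regulators themselves, 1 was higher and 2 were lower at the unadjusted mark, and the median was -0.02. These counts were 0 and 1 without the third shRNA 2 liver. Nfe2l2, the gene of NRF2, was at 0.21 (limma adjusted p = 0.569), Keap1, its inhibitor, at 0.12, and the receptors Nr1i3 (CAR) and Nr1i2 (PXR) were at 0.02 and 0.03. Hnf4a, a hepatocyte regulator, was at -0.18 (adjusted p = 0.583) and Nfe2l3 at -0.35 (adjusted p = 0.431). The list also held larger values, picked out after they were seen. Bcl6, a repressor that takes part in sex-biased liver expression, was at -0.89 for adapted livers (adjusted p = 0.684) and -1.48 for shRNA 2 (adjusted p = 0.63), and Nr0b2, which encodes the repressor SHP, was at -0.61 for shRNA 2 (adjusted p = 0.786). Transcript levels do not measure the activity of these proteins. Bcl6 is also counted among the male-biased genes below.

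Gstp1 and Gstt2 varied with both lists of genes that differ by sex in mouse liver, and Gstt3 with the female-biased list. All animals were labelled male. Of 17 male-biased genes 7 were lower and 0 higher at the unadjusted mark for adapted against control, with a median of -0.58, and of 11 female-biased genes 5 were higher and 0 lower, with a median of 0.56. Leaving out the third shRNA 2 liver gave 7 lower and 4 higher, with medians of -0.32 and 0.48. For shRNA 2 against control the medians were -0.52 and 0.51 with that liver and -0.09 and 0.02 without it. The male-biased mean, relative to control, was -0.69, -0.43 and -0.49 in shRNA 1 livers and -0.10, -0.19 and -1.35 in shRNA 2 livers, against 0.00, 0.20, 0.23 and -0.43 in controls. Gstp1 followed this mean with an r of 0.93 (permutation p = 0.00038, adjusted p = 0.0046) and a rho of 0.87 (permutation p = 0.002, adjusted p = 0.0187). Gstt2 ran against it, with an r of -0.93 (permutation p = 0.00049, adjusted p = 0.0046) and a rho of -0.88 (permutation p = 0.00137, adjusted p = 0.0183). Without the third shRNA 2 liver and the third control, the 2 farthest on the mean, the r was 0.78 for Gstp1 and -0.73 for Gstt2. With the female-biased mean the r was -0.89 for Gstp1 (permutation p = 0.0007, adjusted p = 0.0046) and the rho -0.75 (permutation p = 0.0181, adjusted p = 0.066). For Gstt2 the r was 0.88 (permutation p = 0.00141, adjusted p = 0.00627) and the rho 0.76 (permutation p = 0.0144, adjusted p = 0.0574). For Gstt3 the r was 0.72 (permutation p = 0.0182, adjusted p = 0.0484) and the rho 0.85 (permutation p = 0.00266, adjusted p = 0.0187). Without the same 2 livers these r were -0.73 for Gstp1, 0.63 for Gstt2 and 0.71 for Gstt3. With the male-biased mean Gstt3 had an r of -0.62 (permutation adjusted p = 0.109) and a rho of -0.70 (adjusted p = 0.0777). Deviations from the group means keep the third shRNA 2 liver. Over them the r with the male-biased mean was 0.98 for Gstp1, -0.91 for Gstt2 and -0.42 for Gstt3. With the female-biased mean it was -0.95, 0.82 and 0.60 in that order. The female-biased list shares genes with that of the CAR and PXR targets, as given above. The part of sex-biased expression in the differences of the theta genes was not tested.

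**Figure D5:**
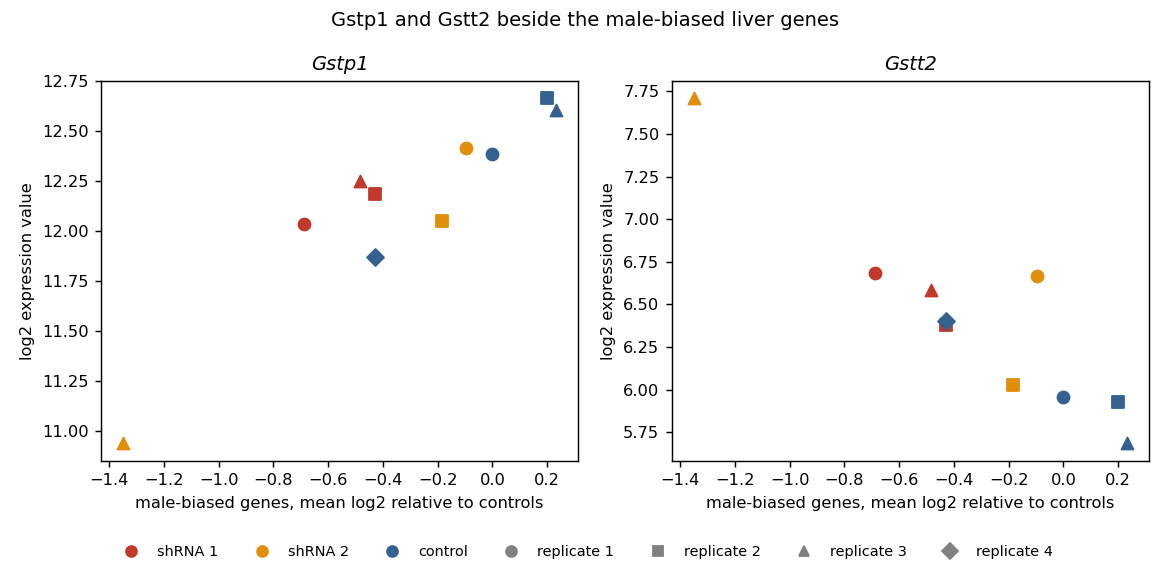
Log2 value of Gstp1 and of Gstt2 (vertical axes) against the mean of the male-biased liver genes relative to control (horizontal axis, log2), with 1 point per liver coloured by group. The third shRNA 2 liver, at -1.35 on the horizontal axis, has the lowest Gstp1 (10.94) and the highest Gstt2 (7.71), and without it and the third control the r is 0.78 for Gstp1 and -0.73 for Gstt2.

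Clock phase and cell makeup were measured as well. A score from 9 clock genes was 0.29, -1.24 and -1.21 in shRNA 1 livers and 0.87, -0.72 and 1.31 in shRNA 2 livers, against 0.90, -0.95, -0.88 and -0.91 in controls. With this score as a covariate the Gstm3 difference of shRNA 1 from control was 1.35 (limma adjusted p = 0.0661) and the Gstt1 difference 0.74 (adjusted p = 0.0661). The Gstt3 difference was 1.20 (adjusted p = 0.0993). Between the hairpins the Gstm3 difference was 1.29 with the covariate, and its limma adjusted p was 0.335, against 0.0821 without the covariate. The members with an unadjusted p under 0.05 between the hairpins then numbered 3 in place of 7, all higher in shRNA 1, beside 3.28% of genes higher in that fit. The mean of 10 sinusoidal endothelial markers lay at 8.72 to 8.78 in shRNA 1 livers and 8.58 to 8.72 in shRNA 2 livers, against 8.55 to 8.71 in controls, and its part in the shRNA 1 values was not tested. The mean of the bile duct markers was 4.00 to 4.10 in shRNA 1 livers and 4.10 to 4.23 in shRNA 2 livers, against 4.11 to 4.30 in controls. That mean is over 5 measured markers, of which Krt19 and Cftr were under the low-value filter. Its part was likewise not tested. Pericentral and periportal hepatocyte markers had 0 of 12 and 0 of 11 genes at the unadjusted mark for adapted against control.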

How the data were processed

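Liver RNA from 10 samples was hybridised to a 1-colour Affymetrix Mouse 2.0 ST array. The authors deposited log2 expression values per transcript cluster, made with Affymetrix Expression Console per the submitters' processing notes; version, normalization and build were not given in the sources used here. A range of 1.40 to 13.8 shows the log2 scale. No 2 arrays were identical. The platform annotation gave 1 symbol to 23521 of 41345 clusters, several to 1814 and none to 16010. Of those with 1 symbol, 23328 matched the GRCm38.p6 gene table by Entrez identifier. For a gene with several clusters the one with the highest mean was kept, and those with a mean under the 40th percentile (log2 3.98) were dropped.

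One limma fit (3.58.1, R 4.3.3) over 10 arrays in 3 groups gave 4 two-sided comparisons, with Benjamini-Hochberg adjustment over 13308 genes and a threshold of 0.05. On simulated data with 200 shifted genes it recovered 59.0% of shifts of 0.5 and 93.4% of shifts of 1 for adapted against control over 13308 genes. There both lines were shifted alike, with independent normal noise for each gene. In the data 1 gene passed for that comparison, and the adjustment is stricter when fewer genes pass. The recovery therefore checks the fit and does not give its power for the members. Correlations over livers used 100000 permutations of all 10 livers, without regard to group (scipy 1.17.1). Named genes were the 10 members, up to 4 genes per list by moderated statistic, the genes most like Gstm3, Gstt1 and Gstt3, and neighbours of both runs. Others, such as Gclc, Gss, Gsr, Gpx1, Hmox1, Txnrd1, Keap1, Nr1i3, Nr1i2, Bcl6, Nr0b2 and Gstp2, were named after their values were seen. The members and lists were chosen with earlier results of these data known. Alternatives changed the normalization, level filter, choice of cluster, fit, threshold or livers included, 1 at a time.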

Additional observations from a re-analysis of the deposited data

Results flagged for a closer look

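Gstm1 differed between the hairpin groups in the direction of its difference from control. All 3 shRNA 1 livers lay above the control mean and all 3 shRNA 2 livers below it, and the difference between the groups, shRNA 1 minus shRNA 2, was 0.53 log2 units, with an adjusted p of 0.532 by limma.

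Among 65 genes looked at, 6 had 1 control liver far from the other 3, and chance alone marks about 1 group in 20 in this way. The lowest control value stood apart for Gsta3 at 9.80, for Me1 at 9.35, for Mup20, a male-biased urinary protein gene, at 11.9, and for Arntl, a clock gene, at 6.15. The highest control value stood apart for Fmo2 at 7.75 and for Arg1 at 11.6. Without the first control, the low one for Gsta3, the Gsta3 difference between shRNA 1 and control was 0.46 (limma adjusted p = 0.21), and that between shRNA 2 and control was 0.0099 (adjusted p = 0.989).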

How the results depend on the processing

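Each difference of the 10 members was refitted under up to 22 settings, and of these values 852 kept their direction and their side of the threshold, 20 passed it and 8 changed sign. Adapted against control called 0 members, 1 with an intensity trend and robust prior (Gstt1, adjusted p = 0.0488), and 1 gene of all tested, 0 with the filter at the 60th percentile or both shRNA groups as 1 group, 6 with the trend and 2 at a threshold of 0.10. For shRNA 1 against control, 0 members were called, 2 with the stricter filter (Gstm3 and Gstt1), 1 with the mean of a gene's clusters (Gstm3), 3 with array weights or the threshold of 0.10 (Gstm3, Gstt1 and Gstt3) and 4 with the trend (these and Gsta3); genes called were 0, and 1 with quantile normalization, 15 with the stricter filter, 7 with the mean of clusters, 19 with array weights, 20 at the threshold of 0.10, 30 with the trend and 3 with the clock covariate. For shRNA 2 against control no setting called a member, by limma, while 3 had an unadjusted p under 0.05, and genes called were 1, or 0 with the stricter filter. Between the hairpins 0 members were called, and 1, Gstm3, with array weights, the trend or the threshold of 0.10; genes called were 2, and 1 with quantile normalization, the stricter filter or the clock covariate, 4 with centred medians, 6 with array weights, 7 with the trend and 8 at the threshold of 0.10. Leaving out each liver in turn gave 0 members and 1 to 3 genes for adapted, 0 to 2 members and 0 to 11 genes for shRNA 1, 0 members and 1 to 3 genes for shRNA 2, and 0 members and 1 to 4 genes between the hairpins. Without the second shRNA 2 liver 1 member was called for shRNA 1 (Gstm3), and without the third 2 (Gstm3 and Gstt3). Genes called for shRNA 1 were 2 without the first control, 9 without the fourth, 1 without the second shRNA 2 liver and 11 without the third; for adapted and for shRNA 2 they were 3 without the first control and 2 without the fourth; between the hairpins they were 4 without the fourth control and 1 without any of 8 others.

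Several values near 0 changed sign. So did the hairpin differences of Gstt2 and Gstp1, which were -0.25 and 0.36 in the main fit. Gstm1 for adapted ranged from -0.0264, without the third control, to 0.17. Gstm2 for shRNA 2 ranged from -0.0044, without the first control, to 0.17. Gstm3 for shRNA 2 was -0.0465 without its replicate 1 and -0.0323 without its replicate 3, in a range up to 0.30. Between the hairpins, Gstm4 was -0.0532 and Gstt2 0.0865 with the clock covariate. Without the third shRNA 2 liver Gstt2 was 0.20 (range -0.64 to 0.20) and Gstp1 -0.0754 (range up to 0.66). The causes were not tested. A fit with only the groups compared has no separate value for adapted livers, which use all arrays.

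A further 2 settings, chosen after seeing the data, counted members at an unadjusted p under 0.05. All were higher. Without the third shRNA 2 liver they were 6 for adapted (beside 5.14% of all genes higher), 8 for shRNA 1 (5%), 1 for shRNA 2 (4.23%) and 5 between the hairpins (3.68%). With the clock covariate they were 7 (5.88%), 8 (4.82%), 3 (4.95%) and 3 (3.28%). Without that liver Gsta4 was at -0.1703 for shRNA 2 and Gstm7 at -0.0185 between the hairpins, each with its sign changed. Same-numbered samples correlated from -0.25 to 0.27 in their deviations from group means over 9 pairs (median 0.08), so the numbers were not taken to pair the samples; the replicate block raised the genes called between the hairpins to 4 and changed no member's call.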
